A study of Mus musculus with 18 samples.

Results

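Chemokines are small secreted proteins that guide leukocytes along concentration gradients, and chemokine receptors are the G protein-coupled receptors through which leukocytes read them. CXC ligands of the *Cxcl1* type act on CXCR2 of neutrophils, CCL2 and CCL7 act on CCR2 of monocytes, and CX3CL1 (fractalkine) acts on CX3CR1 of monocytes, macrophages and dendritic cells. In the ischemic kidney, injured tubule cells, endothelium and arriving leukocytes all release chemokines, and neutrophils are among the first cells to enter the tissue. The genes described here are the protein-coding genes of the mouse whose symbols name a CC, CXC, CX3C or XC chemokine or one of their receptors, together with the platelet chemokines *Ppbp* and *Pf4* and the atypical receptors *Ackr1*, *Ackr2*, *Ackr4* and *Ccrl2*, without *Cxcl12* and its receptor *Cxcr4*. By this rule 59 of the 45706 counted genes were taken, 38 ligands and 21 receptors. At least 1 read was counted for 57 of them, and *Ccl21b* and *Ccl26* had none in any kidney.

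RNA of 18 whole kidneys from young adult male mice on a C57BL/6 background was sequenced 12 h after 22.5 min of bilateral ischemia. The 5 *Cxcl12* KO mice carried *Cxcl12 F/F*, *Pax8rtTA* and *TetOcre*, and the 3 *Cxcl12* control mice carried *Cxcl12 F/F* and *Pax8rtTA* without *TetOcre*. The 5 *Myc* KO mice carried *Myc F/F*, *Pax8rtTA* and *TetOcre*, and the 5 *Myc* control mice carried *Myc F/F* and *Pax8rtTA* without *TetOcre*. All mice received doxycycline, which in KO mice switches on the recombinase in the tubule cells where *Pax8rtTA* is expressed, so that other cells of the kidney keep the floxed gene. No uninjured kidney is among the samples, and levels therefore describe the reperfused kidney only. Floxed line, litter and any processing day cannot be told apart from the cohort. The authors' raw read counts were used, with 12918220 to 29749500 reads on genes per kidney, and levels are given as counts per 1000000 reads on genes (CPM), scaled between kidneys by TMM factors. As a check of the labels, *Cxcl12* had 53.4 ± 7.9 CPM (SD, n = 3) in *Cxcl12* control and 32.2 ± 6.1 CPM (SD, n = 5) in *Cxcl12* KO kidneys, and *Myc* had 94.8 ± 14.5 CPM in *Myc* control and 31.0 ± 3.9 CPM in *Myc* KO kidneys (SD, n = 5 each). The share of unmapped reads lay below 5% in 6 kidneys (*Cxcl12* KO 1 and 2, *Myc* KO 3 and 5, *Myc* control 1 and 3, and no *Cxcl12* control kidney), and results that move without them are given both ways. These 6 kidneys also had the largest libraries, with at least 22437067 reads on genes against at most 18006784 in the others. Unmapped share and depth therefore cannot be told apart. Fold changes and p-values come from the quasi-likelihood test of edgeR fitted over all genes, with Benjamini-Hochberg adjustment, and a gene is called below an adjusted p of 0.05.

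The ligands on which the differences between groups centred lie side by side on chromosome 5. In GRCm38, 7 of the genes, *Cxcl5*, *Ppbp*, *Pf4*, *Cxcl3*, *Cxcl15*, *Cxcl1* and *Cxcl2*, occupy positions 90759360 to 90905938. The bases just before the gene start of *Cxcl1*, *Cxcl2* and *Cxcl3* are shown because these neighbours share a letter pattern there and include the genes with the largest fold changes below. The sequences are from RefSeq on GRCm38.p6, plus strand, 120 bases each and ending at the base before the start that RefSeq gives. Capitals mark a match to the pattern read by NF-kB factors, here GGGA and TTCC with any 2 bases between them. The windows are chr5:90891125-90891244 for *Cxcl1*, chr5:90903779-90903898 for *Cxcl2* and chr5:90785981-90786100 for *Cxcl3*.
Cxcl1: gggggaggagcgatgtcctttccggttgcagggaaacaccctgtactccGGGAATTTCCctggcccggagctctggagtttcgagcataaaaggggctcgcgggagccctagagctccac
Cxcl2: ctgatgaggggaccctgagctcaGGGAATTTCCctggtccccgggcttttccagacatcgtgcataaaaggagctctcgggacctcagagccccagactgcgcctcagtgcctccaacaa
Cxcl3: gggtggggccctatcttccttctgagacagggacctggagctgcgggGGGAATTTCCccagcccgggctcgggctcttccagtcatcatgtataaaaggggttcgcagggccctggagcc
The match has the same letters, GGGAATTTCC, in all 3 windows and begins 71, 97 and 73 bases before the start of *Cxcl1*, *Cxcl2* and *Cxcl3*, respectively. RefSeq windows around the start, all of the same length, were at hand for 45 of the 59 genes, 54 windows in all. On either strand this pattern occurred in 6 of these 54 windows (1 each of *Ccl1*, *Ccr3*, *Cxcl1*, *Cxcl2*, *Cxcl3* and *Cxcl10*) and in 482 of all 32851 windows, which is 1.47%. CACGTG, the E-box read by MYC, occurred in 2 of the 54 windows (*Cxcl3* and *Xcr1*) and in 7.15% of all windows. An interferon response pattern, TTTC and TTTC with any 2 bases between them, occurred in 3 (*Ccl19*, *Cxcl10* and *Cxcl14*) and in 3.44% of all windows. No match of these patterns overlapped another in a window of the 45 genes. Such matches describe letters and do not show that a factor was bound.

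By mean level, each of the 10 highest ligands exceeded the highest receptor. Levels of different genes are compared as CPM per kb of exon, since long genes collect more reads. *Cxcl1* (ENSMUSG00000029380) was the highest ligand with 51.3 ± 19.8 per kb (SD, n = 18), followed by *Cxcl14*, an epithelial chemokine, with 44.1 ± 12.6 per kb. Next came *Cx3cl1* with 32.1 ± 4.6 and *Cxcl16*, the ligand of CXCR6, with 17.6 ± 3.2 per kb. Both are made as membrane-bound proteins. The ranges of *Cxcl1* and *Cxcl14*, and likewise of *Cxcl14* and *Cx3cl1*, overlapped over the 18 kidneys. *Cxcl2* followed with 13.1 ± 9.3 per kb, a spread that includes the mean of *Cxcl16*, and *Ccl6*, *Ccl2*, *Ccl9*, *Pf4* and *Cxcl5* lay between 7.88 and 3.84 per kb, close to each other relative to their spread. Among receptors, *Cxcr2* (3.26 ± 2.52 per kb) and *Ccr1* (3.17 ± 1.83 per kb), which CCL6 and CCL9 engage, were level with each other. *Ccrl2*, *Ccr2*, *Cx3cr1*, *Ccr7* and *Ackr2* followed between 1.24 and 0.263 per kb.

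**Figure D1:**
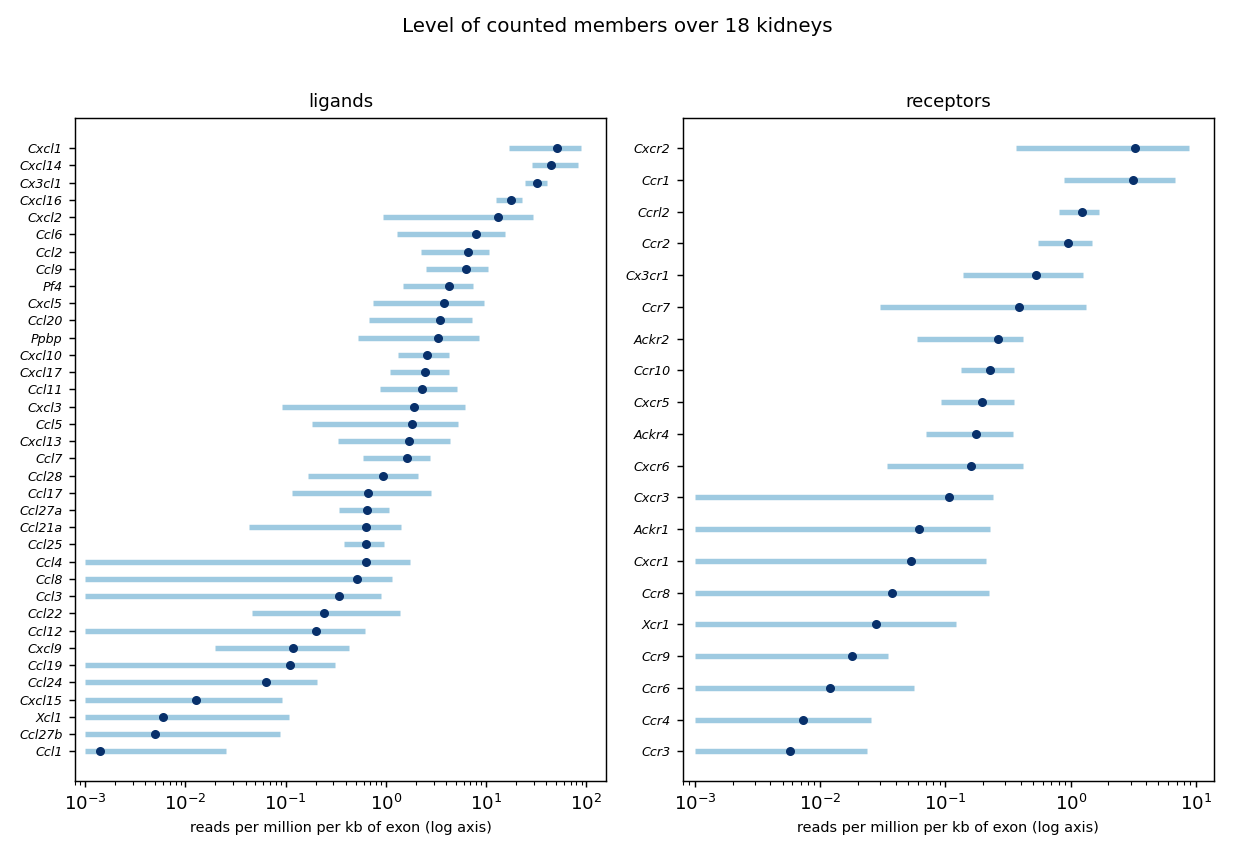
Level of 36 ligands and 20 receptors with at least 1 read, in CPM per kb of exon on a log axis. Points are means over 18 kidneys and bars run from the lowest to the highest kidney, with kidneys at 0 drawn at the left edge. *Cxcl1* and *Cxcr2* head their panels, and *Cxcl3* has the widest range among genes counted in every kidney.

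Stability across kidneys differed between the leading ligands. *Cx3cl1* ranged over the 18 kidneys only 1.66-fold, *Cxcl16* 1.85-fold and *Cxcl14* 2.89-fold. *Cxcl2* ranged 31.6-fold and *Cxcl3*, another ligand of CXCR2, 66.8-fold, from 0.323 to 21.6 CPM. The highest receptor, *Cxcr2*, ranged 24.3-fold. Receptors of lymphocytes and dendritic cells had low levels. Means over 18 kidneys ran from 0.0226 CPM for *Ccr4* to 0.655 CPM for *Cxcr5* and 0.769 CPM for *Ccr7*, and T cell, B cell and NK cell markers summed to at most 3.32 CPM, 1.12 CPM and 0.553 CPM, respectively, in any kidney. The level of *Ackr4*, a scavenger receptor, cannot be given with confidence. This gene overlaps *Acad11* on the opposite strand, had 322 reads over all kidneys when strand was ignored, and had 5705 and 5776 reads in the columns of each strand. Reads of *Acad11* enter those columns in a library that does not keep strand, and with either column *Ackr4* would rank first among receptors, against eleventh here. Of 49 genes with at least 20 reads, 46 had strand columns that summed to within 5% of the column used, and the other exceptions were *Cxcl16* (1.33 times) and *Cxcl10* (1.09 times).

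After loss of *Cxcl12* or *Myc* in tubules, no chemokine or receptor was called in either cohort. In the *Cxcl12* cohort 32 of the 59 genes passed the filter on low counts and edgeR called 0 of them, beside 0 of 15154 genes overall (0.0%). The deleted gene *Cxcl12* was thus not called either, although its groups did not overlap (44.9 to 60.4 CPM in control and 26.3 to 40.8 CPM in KO kidneys). A lack of calls in this cohort therefore does not show a lack of change. At an unadjusted p under 0.05 there were 7 of the 32, beside 13.0% of all genes. They were *Cxcl1*, *Cxcl2*, *Cxcl3*, *Cxcl5* and *Cxcr2* with higher and *Cx3cr1* and *Cx3cl1* with lower fitted levels in KO kidneys. Limma voom called 0 and DESeq2 called *Cxcl2*, *Cxcl3* and *Cxcl5*, beside 2.33% of all genes. Without the filter on low counts edgeR called the same 3 genes. For *Myc*, 32 genes were tested as well and edgeR called 0, beside 1.65% of all genes (246 of 14936). At an unadjusted p under 0.05 there were 6, beside 21.9% of all genes, namely *Cxcl3*, *Cxcl5*, *Ppbp* and *Ccl11* with higher and *Cx3cr1* and *Ccl28* with lower fitted levels. *Ccl11* and *Ccl28* are outside the naming rule and are given because the count is small. Limma voom called 0, and DESeq2 called *Cxcl5* (higher) and *Cx3cr1* (lower), beside 7.57% of all genes. The median log2 fold change of the tested genes was 0.24 in the *Cxcl12* cohort and 0.29 in the *Myc* cohort, and over all genes it was 0.00083 and -0.00083.

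**Figure D2:**
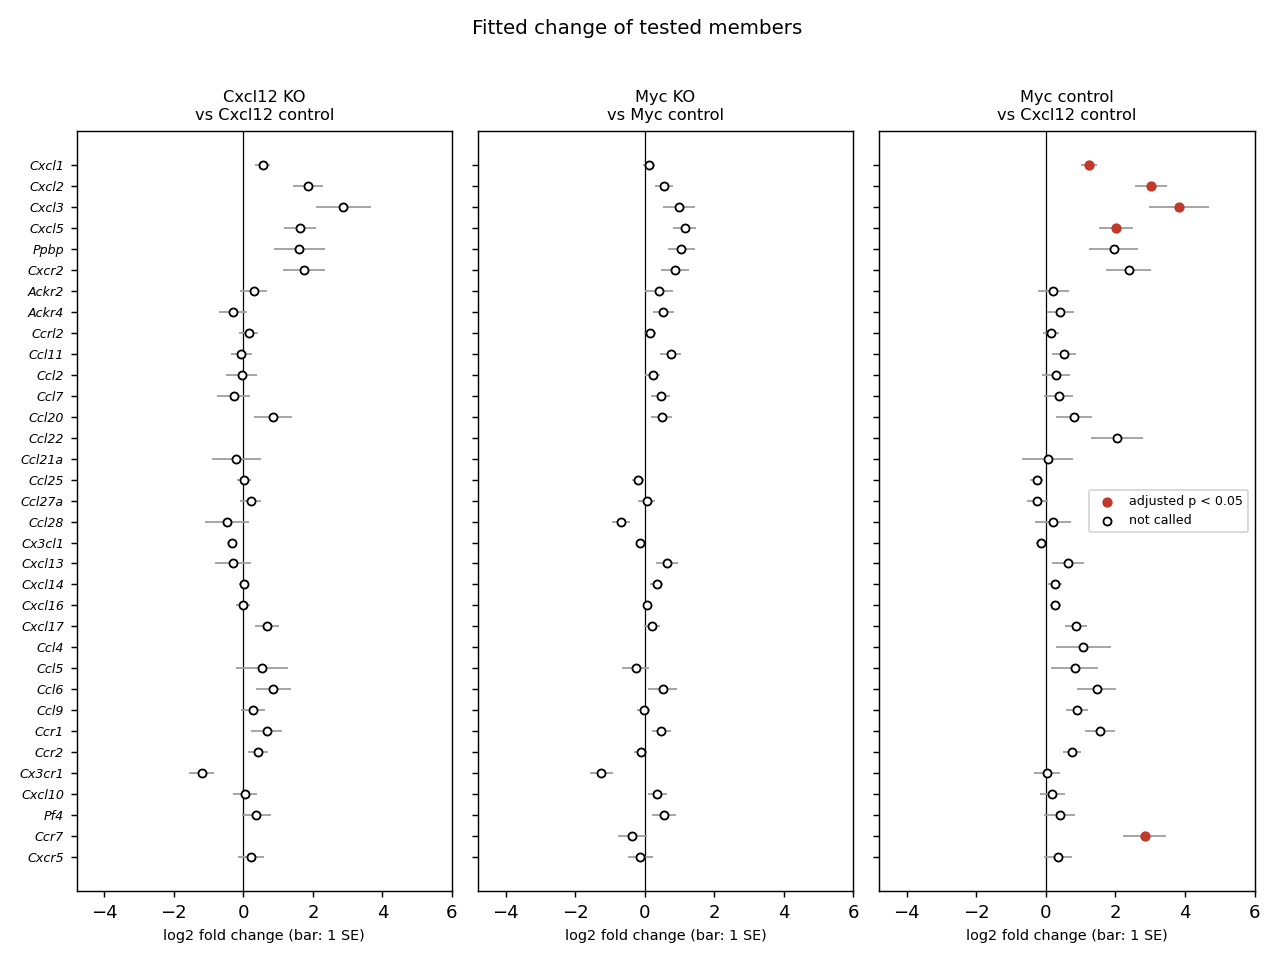
Fitted log2 fold change of tested genes (points, with bars of 1 SE) in *Cxcl12* KO against *Cxcl12* control, *Myc* KO against *Myc* control and *Myc* control against *Cxcl12* control kidneys. Filled points have an adjusted p below 0.05 (edgeR); they occur only in the third panel, where *Cxcl1*, *Cxcl2*, *Cxcl3*, *Cxcl5* and *Ccr7* are called, and the CXCR2 ligands at the top lie right of 0 in all 3 panels.

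The neutrophil-attracting ligands were ordered in the same way across the 4 groups. Mean levels were lowest in *Cxcl12* control, followed by *Cxcl12* KO, *Myc* control and *Myc* KO kidneys, for each of *Cxcl1*, *Cxcl2*, *Cxcl3*, *Cxcl5*, *Ppbp* and *Cxcr2*, although neighbouring groups in this order overlapped in most cases. The order was not particular to these genes. *Ccr1* (means of 3.51, 5.68, 10.2 and 14.3 CPM) and *Ccl6* (5.56, 10.3, 15.4 and 21.8 CPM) had it too, whereas *Ccl2* and *Ccl9* did not. Mean sums of neutrophil, macrophage, endothelial and platelet markers also had this order, and those of fibroblast and proximal tubule markers did not. Of the ligands, *Cxcl2* (ENSMUSG00000058427) shows the pattern most clearly. It stood at 1.93, 4.36 and 5.79 CPM in *Cxcl12* control kidneys and at 15.6, 7.16, 26.5, 13.8 and 10.5 CPM in *Cxcl12* KO kidneys. In *Myc* control kidneys it was 19.7, 42.0, 54.3, 22.6 and 24.1 CPM, and in *Myc* KO kidneys 61.2, 52.6, 51.0, 36.2 and 38.1 CPM. All *Cxcl12* KO kidneys lay above all *Cxcl12* controls, whereas the *Myc* groups overlapped, with 2 of the 5 controls inside the KO range. The log2 fold change of *Cxcl2* was 1.85 (SE 0.44, edgeR adjusted p = 0.12, DESeq2 adjusted p = 0.023) after loss of *Cxcl12* and 0.55 (SE 0.26, edgeR adjusted p = 0.24) after loss of *Myc*.

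*Cxcl3* (ENSMUSG00000029379) had the largest fold change of the tested genes in the *Cxcl12* cohort, though not in the *Myc* cohort, and a wide spread. Its level was 0.387, 0.323 and 0.717 CPM in *Cxcl12* control kidneys, which rests on 6 to 12 reads each. *Cxcl12* KO kidneys had 0.704, 1.14, 7.62, 4.82 and 3.84 CPM. KO kidney 1 therefore lay within the control range, KO kidney 2 slightly above it, and the other 3 well above. The log2 fold change was 2.88 (SE 0.79, edgeR adjusted p = 0.18, DESeq2 adjusted p = 0.0022). KO kidneys 1 and 2 are also those with few unmapped reads, and without them it was 3.49 (SE 0.40, edgeR adjusted p = 0.017). In the *Myc* cohort *Cxcl3* was at 1.27, 8.90, 12.5, 7.63 and 3.26 CPM in control and at 8.06, 12.8, 21.6, 14.1 and 10.4 CPM in KO kidneys, with a log2 fold change of 1.00 (SE 0.46, edgeR adjusted p = 0.23) and overlapping groups.

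*Cxcl5* (ENSMUSG00000029371), which epithelial cells also make, had fitted changes of similar size in both cohorts. It was 1.38, 1.67 and 1.49 CPM in *Cxcl12* control and 1.89, 2.88, 8.005, 4.16 and 7.001 CPM in *Cxcl12* KO kidneys. The groups did not overlap, but KO kidney 1 was close to the controls. *Myc* control kidneys had 5.20, 12.0, 4.57, 6.95 and 2.61 CPM and *Myc* KO kidneys 14.9, 17.8, 15.4, 11.3 and 9.52 CPM. Here *Myc* control 2 lay among the KO kidneys and the other 4 controls below all of them. The log2 fold changes were 1.62 (SE 0.45, edgeR adjusted p = 0.19, DESeq2 adjusted p = 0.012) and 1.15 (SE 0.32, edgeR adjusted p = 0.088, DESeq2 adjusted p = 0.011). Without *Cxcl12* KO 1 and 2 the first was 2.05 (edgeR adjusted p = 0.030). Of 10 fits of the *Myc* cohort that left out 1 kidney, only that without *Myc* control 2 called *Cxcl5* (edgeR adjusted p = 0.045). In the others the adjusted p reached 0.19.

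*Cxcl1* and *Ppbp* differed less clearly between KO and control kidneys. *Cxcl1*, the most abundant of these ligands, was 32.0, 48.6 and 67.6 CPM in *Cxcl12* control and 89.0, 68.0, 79.6, 73.4 and 53.8 CPM in *Cxcl12* KO kidneys. KO kidney 5 lay within the control range. Its log2 fold change was 0.56 (SE 0.22, edgeR adjusted p = 0.33) in this cohort and 0.12 (SE 0.18, edgeR adjusted p = 0.72) in the *Myc* cohort, where controls ranged from 78.6 to 143 CPM and KO kidneys from 88.4 to 168 CPM. *Ppbp*, a chemokine stored in platelets, was 0.884, 0.753 and 0.836 CPM in *Cxcl12* control and 0.660, 0.795, 6.68, 3.60 and 1.49 CPM in *Cxcl12* KO kidneys. KO kidneys 1 and 2 were within or below the range of controls and the other 3 above. The log2 fold changes of *Ppbp* were 1.61 (SE 0.74, edgeR adjusted p = 0.38) and, in the *Myc* cohort, 1.06 (SE 0.40, edgeR adjusted p = 0.16). Platelet and megakaryocyte markers summed to 2.84 to 6.22 CPM in *Cxcl12* KO and 3.33 to 3.82 CPM in *Cxcl12* control kidneys, where 1 of the 4 (*Gp6*) was at 0, and their part in the level of *Ppbp* was not tested. *Cxcl15*, the sixth ligand of the group, had at most 0.196 CPM and was not tested.

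**Figure D3:**
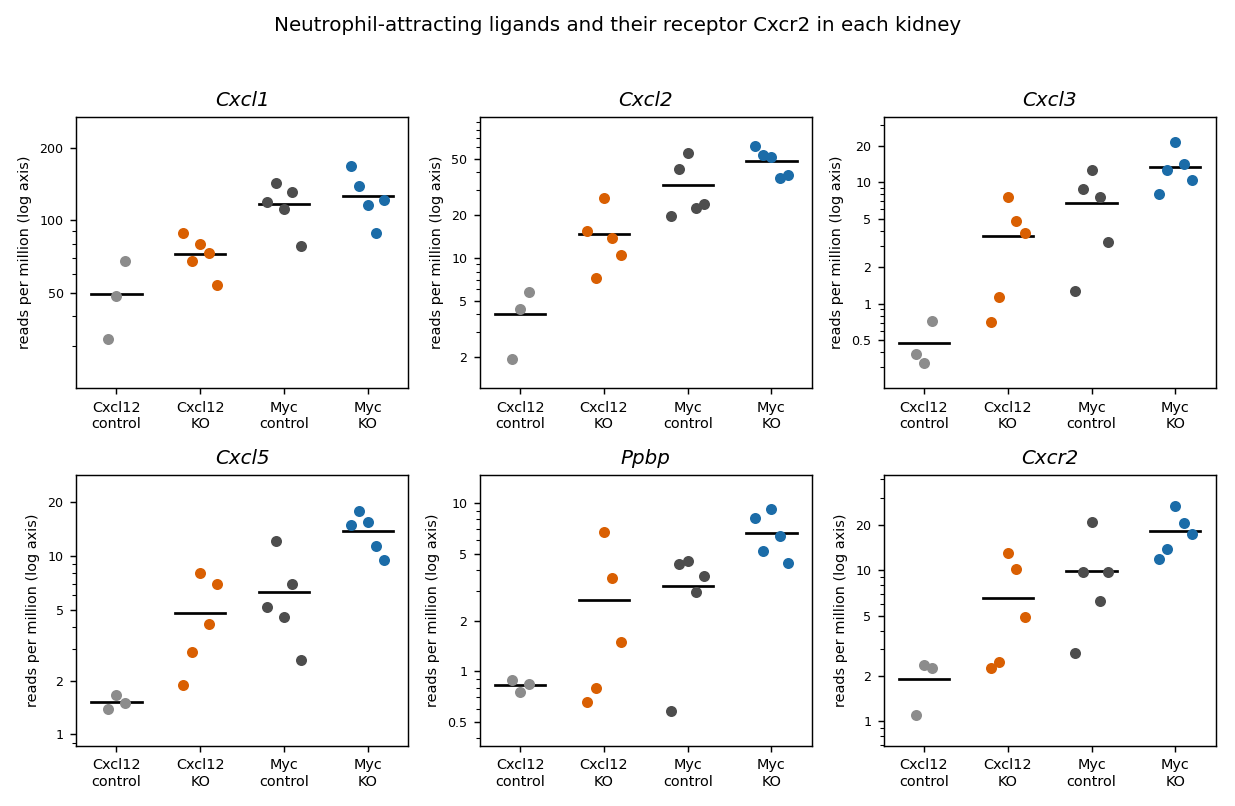
CPM (log axes) of 5 ligands of CXCR2 and of *Cxcr2* in each of 18 kidneys, by group; each point is a kidney and each line a group mean. *Cxcl12* control kidneys hold the lowest group mean and *Myc* KO kidneys the highest in every panel, and *Cxcl12* KO kidneys 1 and 2 (the first and second points) lie near the controls for *Cxcl3*, *Ppbp* and *Cxcr2*.

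*Cxcr2* (ENSMUSG00000026180, chromosome 1, 74153989 to 74161246), the receptor for these ligands on neutrophils, showed the same order of groups. It was 1.11, 2.37 and 2.27 CPM in *Cxcl12* control and 2.24, 2.46, 13.0, 10.1 and 4.89 CPM in *Cxcl12* KO kidneys. KO kidney 1 lay inside the control range, KO kidney 2 just above it, and KO kidneys 3 and 4 far above it. *Myc* control kidneys had 2.85, 9.82, 20.9, 6.28 and 9.72 CPM and *Myc* KO kidneys 11.9, 13.9, 26.8, 20.7 and 17.3 CPM, with only *Myc* control 3 among the KO values. The log2 fold changes were 1.74 (SE 0.61, edgeR adjusted p = 0.28) and 0.86 (SE 0.40, edgeR adjusted p = 0.23). With the low share of unmapped reads as a covariate the first was 2.27 (edgeR adjusted p = 0.035). In this cohort only KO kidneys 1 and 2 have that low share, so this estimate in effect compares the other KO kidneys with the controls. Of 10 alternative settings for this cohort it was the only 1 to call *Cxcr2*. Of 10 fits of the *Myc* cohort that left out 1 kidney, only that without *Myc* control 3 called *Cxcr2* (edgeR adjusted p = 0.038). In the others the adjusted p reached 0.44.

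Markers of neutrophils were followed beside these genes. The summed level of *S100a8*, *S100a9*, *Ly6g*, *Retnlg*, *Csf3r*, *Mmp8* and *Ngp* was 19.5 to 26.6 CPM in *Cxcl12* control, 29.5 to 136 CPM in *Cxcl12* KO, 48.4 to 242 CPM in *Myc* control and 140 to 275 CPM in *Myc* KO kidneys. Each of the 6 that were tested had a higher fitted level in KO kidneys in each cohort, and edgeR called 0 of 6 in both; at an unadjusted p under 0.05 there were 6 after loss of *Cxcl12* and 0 after loss of *Myc*. Across the 18 kidneys, after group means were removed, *Cxcr2* varied with *S100a8*, one of these neutrophil markers, with r = 0.93 (Spearman rho = 0.89, permutation p = 2e-05 for both from 100000 resamples, adjusted p = 0.0002 over 10 pairs). Without the 2 kidneys farthest from the median of *Cxcr2*, *Cxcl12* KO 1 and *Myc* control 1, r was 0.91, and without *Cxcl12* KO 3 and 4, the kidneys of that group with the highest neutrophil sums (136 and 133 CPM), it was 0.90. In whole-kidney RNA a change in the number of cells of a type and a change in RNA per cell cannot be told apart. Markers of injured tubule (*Havcr1*, *Lcn2*, *Krt20* and *Vcam1*) summed to 1601 to 2391 CPM in *Cxcl12* control and to 2564 to 3343 CPM in the other 15 kidneys, and their part in the ligand levels was not tested. Between the control groups edgeR called 1 of these 4, *Lcn2*, higher in *Myc* control kidneys (log2 difference 1.14, SE 0.23, adjusted p = 0.017), and *Havcr1* had a difference of -0.30 (SE 0.47, adjusted p = 0.79). *Havcr1* averaged 624 ± 66 CPM (SD, n = 3) in *Cxcl12* control, 673 ± 287 CPM in *Cxcl12* KO, 506 ± 298 CPM in *Myc* control and 203 ± 79 CPM in *Myc* KO kidneys (SD, n = 5 each).

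The mix of CXCR2 ligands was compared as well. Per kb, *Cxcl2* amounted to 5.47% to 8.13% of *Cxcl1* in *Cxcl12* control, 9.54% to 30.2% in *Cxcl12* KO, 14.9% to 44.1% in *Myc* control and 28.2% to 39.7% in *Myc* KO kidneys. All 15 other kidneys lay above the *Cxcl12* controls, and the remaining groups overlapped each other. *Cxcl3* amounted to 0.356% to 0.647% of *Cxcl1* in *Cxcl12* control, 0.424% to 5.13% in *Cxcl12* KO, 0.569% to 6.02% in *Myc* control and 2.57% to 9.94% in *Myc* KO kidneys, so that only the *Myc* KO kidneys all lay above the *Cxcl12* controls. These ratios were computed after the levels had been seen and were not tested. Of the pairs tested within groups, *Cxcl1* and *Cxcl2* gave r = 0.60 (rho = 0.57, permutation p = 0.025 and 0.034, adjusted p = 0.082 and 0.084, and r = 0.49 without the 2 farthest kidneys), which does not pass the correction. *Cxcl1* with *Havcr1*, a marker of injured proximal tubule, gave r = 0.49 (rho = 0.57, permutation p = 0.033 and 0.012, adjusted p = 0.082 and 0.059, and r = 0.41 without the 2 farthest kidneys).

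The control groups of both cohorts were compared with each other as well. Between *Myc* control and *Cxcl12* control kidneys edgeR called 5 of 35 tested genes, all higher in *Myc* control, beside 1.12% of all genes called in that direction. *Cxcl2* differed by 3.02 on the log2 scale (SE 0.45, adjusted p = 0.0018), *Cxcl3* by 3.82 (SE 0.86, adjusted p = 0.028), *Cxcl5* by 2.03 (SE 0.49, adjusted p = 0.038) and *Cxcl1* by 1.24 (SE 0.24, adjusted p = 0.013). *Cxcl2* was called in each of 18 fits that left out 1 kidney. The call of *Cxcl1* was lost without *Cxcl12* control 1 or 2, and those of *Cxcl3* and *Cxcl5* were lost without each one of the *Cxcl12* controls and without *Myc* control 2 or 3. A log2 difference of 2.38 for *Cxcr2* (SE 0.65, adjusted p = 0.063) and of 1.55 for *Ccr1* (SE 0.43, adjusted p = 0.067) did not pass with edgeR and passed with DESeq2 (adjusted p = 0.0072 and 0.0050). DESeq2 made 8 calls in all, beside 3.14% of all genes. Without the 6 kidneys with few unmapped reads edgeR also made 8 calls: *Cxcl1* was lost (log2 difference 1.25, adjusted p = 0.051), and *Cxcr2*, *Ccr1*, *Ccl6* and *Ppbp* were gained. Groups did not overlap for 10 of the 35 genes, each higher in *Myc* control, beside 6.23% of all genes. Among them were *Cxcl1*, *Cxcl2*, *Cxcl3*, *Cxcl5*, *Cxcr2*, *Ccr1*, *Ccr2*, *Ccr7* and *Cxcl17*, the last of which is named only after its values were seen. The median log2 difference over the 35 genes was 0.64, and over all genes it was -0.0034. Markers of other cells were called in this comparison too. Of 7 neutrophil markers edgeR called 3 higher in *Myc* control (*S100a8*, *S100a9* and *Mmp8*, with 6 of 7 at an unadjusted p under 0.05), of 9 monocyte and macrophage markers *Itgam* higher, and of 5 proximal tubule markers *Lrp2* lower. Their part in the chemokine levels was not tested. This comparison shares its control kidneys with both KO comparisons.

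*Ccr7* (ENSMUSG00000037944, chromosome 11, 99144196 to 99155077), which leads dendritic cells and lymphocytes to lymph nodes, was the fifth call. Its levels were low throughout. *Cxcl12* control kidneys had 0.221, 0.161 and 0.0597 CPM, from 1 to 4 reads, and *Cxcl12* KO kidneys 0.440, 0.454, 0.855, 1.11 and 0.558 CPM. *Myc* control kidneys had 0.693, 2.62, 0.845, 0.738 and 0.770 CPM and *Myc* KO kidneys 0.553, 0.619, 0.959, 1.49 and 0.694 CPM. All other kidneys thus lay above the *Cxcl12* controls. The log2 difference between the control groups was 2.84 (SE 0.62, edgeR adjusted p = 0.025), the call was lost without each one of the *Cxcl12* controls, and the adjusted p was 0.074 when only the 8 control kidneys were fitted. *Ccr7* was removed by the filter in the *Cxcl12* cohort, and without the filter its log2 fold change there was 2.11 (SE 0.58, edgeR adjusted p = 0.12). In the *Myc* cohort it was -0.35 (SE 0.43, edgeR adjusted p = 0.66).

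*Cx3cr1* was the only receptor with lower fitted levels at an unadjusted p under 0.05 in both cohorts. *Cx3cr1* (ENSMUSG00000052336, chromosome 9, 119901616 to 120069879) stood at 4.03, 3.55 and 2.81 CPM in *Cxcl12* control and at 1.10, 2.57, 1.55, 1.55 and 0.620 CPM in *Cxcl12* KO kidneys. All KO kidneys lay below all controls, which held in that direction for 1 of 32 genes, beside 4.71% of all genes, and in the other direction for *Cxcl2* and *Cxcl5*, beside 4.98%. For *Myc* no gene of the 32 stood apart in this way, beside 2.04% of all genes higher and 3.92% lower. In the *Myc* cohort controls had 5.66, 2.95, 1.59, 5.35 and 2.13 CPM and KO kidneys 1.501, 1.63, 1.46, 1.67 and 1.19 CPM. The KO kidneys lay close together, and only *Myc* control 3 overlapped them. The log2 fold changes were -1.20 (SE 0.35, edgeR adjusted p = 0.20) in the *Cxcl12* and -1.25 (SE 0.34, edgeR adjusted p = 0.082, DESeq2 adjusted p = 0.013) in the *Myc* cohort. Of 10 fits of the *Myc* cohort that left out 1 kidney, only that without *Myc* control 3 called *Cx3cr1* (edgeR adjusted p = 0.022). In the others the adjusted p reached 0.18. *Cxcl12* controls averaged 3.46 ± 0.62 CPM (SD, n = 3) and *Myc* controls 3.54 ± 1.87 CPM (SD, n = 5), with a log2 difference of 0.027 (SE 0.38, edgeR adjusted p = 0.98).

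Its ligand *Cx3cl1* (ENSMUSG00000031778, chromosome 8, 94772009 to 94782427), made by tubule cells and endothelium, had smaller fitted changes. It was 152, 161 and 124 CPM in *Cxcl12* control and 110, 132, 140, 97.3 and 99.6 CPM in *Cxcl12* KO kidneys, which overlapped. The log2 fold changes were -0.34 (SE 0.14, edgeR adjusted p = 0.35) and -0.14 (SE 0.093, edgeR adjusted p = 0.39). Markers of monocytes and macrophages (*Adgre1*, *Csf1r*, *Cd68*, *Lyz2*, *C1qa*, *C1qb*, *Ly6c2*, *Mrc1* and *Itgam*) showed no shared direction. Fitted levels were higher in *Cxcl12* KO kidneys for 4 of 9 and in *Myc* KO kidneys for 5 of 9, and edgeR called 0 in both (at an unadjusted p under 0.05, 1 and 3). Their sums were 105 to 124 CPM in *Cxcl12* control, 94.0 to 151 CPM in *Cxcl12* KO, 121 to 164 CPM in *Myc* control and 143 to 172 CPM in *Myc* KO kidneys. *Csf1r*, the receptor that maintains macrophages, had log2 fold changes of -0.26 (SE 0.13, edgeR adjusted p = 0.42) and 0.14 (SE 0.12, edgeR adjusted p = 0.52), and within groups *Cx3cr1* and *Csf1r* gave r = 0.16 (rho = 0.17, permutation p = 0.47 and 0.49, adjusted p = 0.61 and 0.70).

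**Figure D4:**
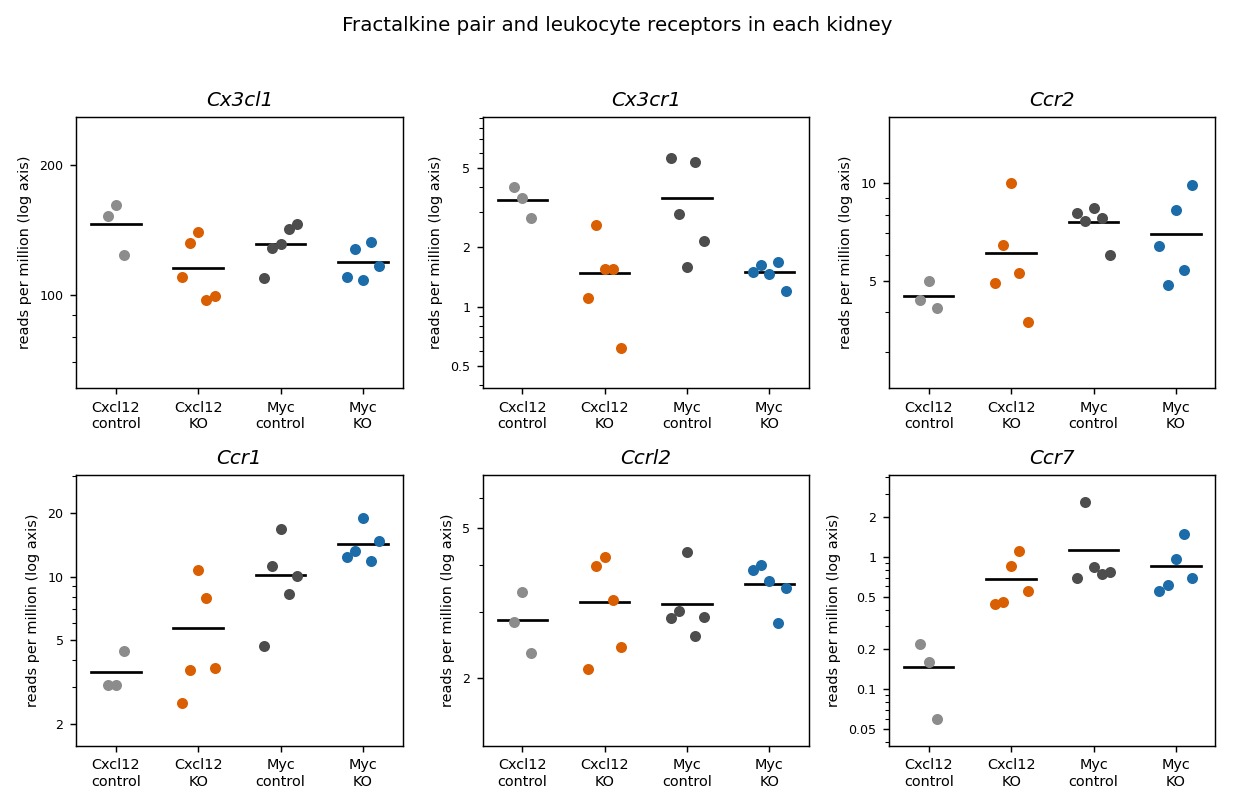
CPM (log axes) of *Cx3cl1*, its receptor *Cx3cr1* and 4 further receptors in each of 18 kidneys, by group; each point is a kidney and each line a group mean. *Cx3cr1* is lower in most KO than control kidneys of both cohorts, with *Myc* KO kidneys between 1.19 and 1.67 CPM. *Ccr1*, *Ccr2*, *Ccrl2* and *Ccr7* all have their lowest group mean in *Cxcl12* control kidneys. *Cxcl12* KO and *Cxcl12* control kidneys overlap for *Ccr1*, *Ccr2* and *Ccrl2* and do not overlap for *Ccr7*.

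No gene of the monocyte axis of *Ccl2* and *Ccr2* was called. *Ccl2*, the main monocyte attractant, was 8.51, 4.95 and 5.79 CPM in *Cxcl12* control and 2.55, 4.54, 10.5, 10.7 and 3.41 CPM in *Cxcl12* KO kidneys, so that KO kidneys lay on both sides of the controls. Its log2 fold changes were -0.04 (SE 0.44, edgeR adjusted p = 0.98) and 0.23 (SE 0.23, edgeR adjusted p = 0.59). *Ccl7*, its neighbour on chromosome 11, had log2 fold changes of -0.28 (SE 0.48, edgeR adjusted p = 0.84) and 0.46 (SE 0.28, edgeR adjusted p = 0.36). Within groups *Ccl2* and *Ccl7* gave r = 0.67 (rho = 0.65, permutation p = 0.017 and 0.022, adjusted p = 0.082 and 0.075, and r = 0.70 without the 2 farthest kidneys), which does not pass the correction. Their receptor *Ccr2* had log2 fold changes of 0.42 (SE 0.28, edgeR adjusted p = 0.55) and -0.11 (SE 0.19, edgeR adjusted p = 0.76). Neither *Ccr2* with *Ly6c2*, a marker of inflammatory monocytes (r = 0.035, rho = -0.013, permutation p = 0.93 and 0.97, adjusted p = 0.93 and 0.97), nor *Ccl2* with *Havcr1* (r = -0.20, rho = -0.10, permutation p = 0.55 and 0.73, adjusted p = 0.61 and 0.91) passed within groups.

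The CCR1 ligands *Ccl6* and *Ccl9* had higher fitted levels in *Myc* control than *Cxcl12* control kidneys, without a call by edgeR over all kidneys. *Ccl6*, a myeloid chemokine of rodents, was 6.08, 6.08 and 4.54 CPM in *Cxcl12* control and 2.31, 22.1, 21.6, 14.95 and 16.2 CPM in *Myc* control kidneys. *Myc* control 1 lay below every *Cxcl12* control and the other 4 far above them. The log2 difference was 1.46 (SE 0.57, edgeR adjusted p = 0.18). Of 18 fits that left out 1 kidney, only that without *Myc* control 1 called *Ccl6* (edgeR adjusted p = 0.035). In the others the adjusted p reached 0.40. *Ccl9* differed by 0.90 (SE 0.32, edgeR adjusted p = 0.14). In KO against control kidneys, log2 fold changes of *Ccl6* were 0.86 (SE 0.50, edgeR adjusted p = 0.49) and 0.51 (SE 0.41, edgeR adjusted p = 0.48), those of *Ccr1* 0.67 (SE 0.44, edgeR adjusted p = 0.55) and 0.48 (SE 0.27, edgeR adjusted p = 0.31), and those of *Ccl9* 0.28 and -0.03. *Ccl3* and *Ccl4* averaged 0.261 and 0.415 CPM, and within groups they gave r = 0.59 (rho = 0.58, permutation p = 0.051 and 0.042, adjusted p = 0.10 and 0.085).

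Of the interferon-linked, epithelial and lymphoid ligands edgeR called 0 in either cohort. The 9 lymphoid and epithelial ligands tested in the *Cxcl12* cohort had log2 fold changes from -0.47 (*Ccl28*) to 0.67 (*Cxcl17*), with 1 at an unadjusted p under 0.05, beside 13.0% of all genes. The 8 tested in the *Myc* cohort ranged from -0.69 (*Ccl28*) to 0.64 (*Cxcl13*), with 1 as well, beside 21.9% of all genes. *Ccl28*, *Cxcl17* and *Cxcl13* are named as the ends of these ranges. *Cxcl10*, an interferon-induced ligand of CXCR3, averaged 5.87 CPM and had log2 fold changes of 0.05 (SE 0.33) and 0.36 (SE 0.27), with edgeR adjusted p of 0.96 and 0.45. Its relative *Cxcl9* averaged 0.355 CPM, and within groups the pair gave r = 0.44 (rho = 0.43, permutation p = 0.073 and 0.12, adjusted p = 0.12 and 0.19). *Pf4*, a platelet chemokine, had 0.37 (SE 0.42, edgeR adjusted p = 0.73) and 0.55 (SE 0.34, edgeR adjusted p = 0.36). *Cxcl14* had 0.02 (SE 0.15, edgeR adjusted p = 0.97) and 0.35 (SE 0.19, edgeR adjusted p = 0.29), and *Cxcl16* had -0.01 (SE 0.19) and 0.08 (SE 0.087), with edgeR adjusted p of 0.99 and 0.63. *Cxcl16* and its receptor *Cxcr6*, which averaged 0.306 CPM, gave r = 0.14 within groups (rho = 0.03, permutation p = 0.55 and 0.92, adjusted p = 0.61 and 0.97). Of the atypical receptors, *Ackr2*, which clears inflammatory CC chemokines, had 0.30 (SE 0.38) and 0.41 (SE 0.40), and *Ccrl2*, a receptor that does not signal, had 0.15 (SE 0.26) and 0.17 (SE 0.17), all with edgeR adjusted p of at least 0.57. The 33 remaining genes averaged at most 4.99 CPM, the level of *Ccl20*.

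The genes were also grouped by position. The chromosome 5 block held the largest fold change of the *Cxcl12* cohort, *Cxcl3*, and in the *Myc* cohort the largest was that of *Cx3cr1* on chromosome 9. All 6 tested genes of the block had higher fitted levels in KO kidneys in both cohorts, with median log2 fold changes of 1.62 and 0.77. Higher fitted levels were found for 22 and 23 of the 32 tested chemokine and receptor genes, and for 50.2% and 49.9% of all genes. Apart from *Pf4* the 6 are the CXCR2 ligands described above, and edgeR called 0 of them in either cohort. The 11 CC ligands on chromosome 11 between 82035571 and 83664683, from *Ccl2* to *Ccl4*, had medians of 0.12 and 0.34, with 3 and 4 of 6 tested genes higher. The blocks were not tested against each other.

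The KO effects of both cohorts were also compared by a test of the difference itself, and no gene was called. In the fit over 18 kidneys edgeR called 0 of 35 (beside 0.0692% of all genes) and DESeq2 0 of 35 (beside 2.04%), and at an unadjusted p under 0.05 there were 3, *Cxcl2*, *Ccr7* and *Ccl22*, beside 11.4% of all genes. For *Cxcl2* the *Myc* effect was smaller than the *Cxcl12* effect by a log2 difference of -1.30 (SE 0.54, edgeR adjusted p = 0.35), and for *Cx3cr1* the difference was -0.05 (SE 0.52, edgeR adjusted p = 0.99). An average of both KO effects in this fit, an analysis chosen after the data had been seen, called 4 of 35 genes beside 3.93% of all genes. *Cxcl2* rose by 1.20 on the log2 scale (SE 0.27, edgeR adjusted p = 0.026), *Cxcl3* rose by 1.93 (SE 0.51, adjusted p = 0.043), *Cxcl5* rose by 1.38 (SE 0.30, adjusted p = 0.023) and *Cx3cr1* fell by 1.22 (SE 0.26, adjusted p = 0.022). In the same fit edgeR called 2 of 7 neutrophil markers higher in KO kidneys (*S100a8* and *Mmp8*, with 6 of 7 at an unadjusted p under 0.05 and a median log2 difference of 1.19), the endothelial *Cdh5* and the injury marker *Lcn2* higher and the fibroblast collagen gene *Col1a1* lower, and their part in the result was not tested. *Cxcr2* had 1.30 (SE 0.40, edgeR adjusted p = 0.067), and DESeq2 called 6 genes, these 5 and *Ppbp*, beside 9.61% of all genes. All 4 calls were lost without *Cxcl12* control 1 and again without *Cxcl12* control 2, the call of *Cxcl5* also without *Cxcl12* control 3, and that of *Cxcl3* without 13 of the 18 kidneys. Without the 6 kidneys with few unmapped reads edgeR called 7 genes, these 4 and *Cxcr2*, *Ppbp* and *Ccl28*, the last of which had a log2 difference of -1.25 (adjusted p = 0.045).

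Genes of chemokine receptor signalling (G protein subunits, RGS proteins, arrestins, kinases and other partners, 38 genes apart from those above) had, in both cohorts, more fitted levels above than below control. In the *Cxcl12* cohort 27 of 37 tested were higher, beside 50.2% of all genes, and edgeR called 0. At an unadjusted p under 0.05 there were 4 of the 37, beside 13.0% of all genes. In the *Myc* cohort 30 of 38 were higher, beside 49.9% of all genes. Of the 38, 5 had an unadjusted p under 0.05, beside 21.9% of all genes, and 1 was called, beside 1.65%. It was *Rgs16*, a regulator that shortens G protein signalling (log2 fold change 0.79, SE 0.18, edgeR adjusted p = 0.047). Between the control groups 31 of 38 were higher in *Myc* control, beside 49.3% of all genes, and 17 had an unadjusted p under 0.05, beside 17.7%. EdgeR called 2 higher, the kinase subunit *Pik3cg* and *Rgs1*, beside 1.12% of all genes.

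Markers of the other cell types were followed as well. T cell markers summed to 1.73 to 3.32 CPM over all kidneys, and of their 6 genes 2 were tested and 0 called by edgeR in any comparison (at an unadjusted p under 0.05, 1 between the control groups). Of 5 endothelial markers edgeR called 0 in either cohort (at an unadjusted p under 0.05, 1 with loss of *Cxcl12* and 2 with loss of *Myc*), and their sums were 424 to 592 CPM in *Cxcl12* KO and 576 to 801 CPM in *Myc* KO kidneys, against 438 to 477 CPM and 428 to 708 CPM in the respective controls. Fibroblast and pericyte markers (4 genes, at an unadjusted p under 0.05 1 in each cohort), proximal tubule markers (5 genes, 1 and 0) and loop and distal tubule markers (4 genes, 0 and 0) likewise had 0 calls by edgeR in both KO comparisons. Their part in the chemokine levels was not tested.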

How the data were processed

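The authors trimmed reads with Trimmomatic 0.32, aligned them to GRCm38 with STAR 2.4.0 and deposited a table of unnormalised counts, by gene, from every kidney, per the submitters' processing notes. The annotation release is not given in the sources used here, and names and coordinates were taken from GENCODE vM21. The column that ignores strand was used. STAR counts only reads placed at 1 position and on 1 gene, so near-identical copies such as *Ccl21a* and *Ccl21b* or *Ccl27a* and *Ccl27b* are uncertain. Reads that were unmapped, placed at several positions, or on no gene or several genes (29.4% to 32.6% per kidney) stayed out of library sizes and tests. The 12918220 to 29749500 reads on genes set the precision of low genes.

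CPM used TMM-scaled library sizes of edgeR 4.0.16 (R 4.3.3), and per kb values were divided by the union of exons. Each cohort was fitted by edgeR's quasi-likelihood test after filterByExpr, and the control groups and the difference of KO effects in a fit over all 18 kidneys. SE is the size of the log2 fold change divided by the root of F. Each script with a model was tested on simulated data. Alternatives were DESeq2 1.42.0, limma 3.58.1 (voom), other size factors, no filter, the strand columns, a replicate block, the low-unmapped kidneys as a covariate or left out, and leaving out each kidney. An averaged KO effect, a fit of the 8 control kidneys and pairs without *Cxcl12* KO 3 and 4 were added after seeing the data. The 10 pairs used log2 CPM (prior count 2) minus group means, with labels permuted within groups (two-sided, 100000 resamples, scipy 1.17.1).

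The genes and lists were chosen with earlier results of these data known. Genes named with values were those called in a test, those whose KO and control kidneys did not overlap in a cohort, those with the 3 largest fold changes per cohort (at 1 CPM or more for the latter sets), the 10 ligands and 8 receptors with the highest level per kb, and members of the pairs. The labels number the replicates without naming mice, so p-values measure the spread between these kidneys. No 2 kidneys of a group differed by as little as sampling noise (chi-square per degree of freedom 5.77 to 69.1 over 33 pairs). 1 gene of the family is in the counts and is not reported here.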

Additional observations from a re-analysis of the deposited data

Results flagged for a closer look

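In 75 groups of 5 kidneys, 6 values, in 5 kidneys, stood far from the other 4 of their group by Dixon's criterion, where chance marks about 1 in 20 groups. *Myc* control 1 was low in *Ccl6* (2.311 CPM, against 14.95 to 22.12 CPM in the other *Myc* controls) and in *Ppbp* (0.5777 CPM, against 2.953 to 4.532 CPM). This kidney also had the lowest *Cxcl3*, *Cxcl2* and *Cxcr2* of its group, and under 5% of its reads were unmapped. *Myc* control 3, likewise under 5%, had the highest levels of the same genes in that group (12.5, 54.3 and 20.9 CPM, respectively). *Myc* control 2 was high in *Ccr7* (2.618 CPM, against 0.6933 to 0.8454 CPM), and without it the log2 difference of *Ccr7* between the control groups was 2.31 (edgeR adjusted p = 0.041). *Myc* control 5 was low in *Ccr2* (5.985 CPM, against 7.658 to 8.387 CPM). *Cxcl12* KO 3 was high in *Cxcl16* (69.79 CPM, against 37.77 to 44.47 CPM), an otherwise even ligand. *Myc* KO 2 was low in *Pf4* (2.757 CPM, against 4.2 to 4.741 CPM).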

How the results depend on the processing

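In each cohort 32 of the 59 genes passed the filter, and the others had too few reads to be tested. The number of genes called in the *Cxcl12* cohort was 0, and 3 with DESeq2 or without the filter (*Cxcl2*, *Cxcl3* and *Cxcl5*), 3 with the low-unmapped covariate (*Cxcl3*, *Cxcl5* and *Cxcr2*), 2 without the 6 kidneys under 5% unmapped (*Cxcl3* and *Cxcl5*) and 0 to 0 without single kidneys. In the *Myc* cohort it was 0, and 2 with DESeq2, 1 in the fit over all 18 kidneys (*Cx3cr1*), 1 with the covariate (*Cxcl5*) and 0 to 2 without single kidneys. Between the control groups it was 5, and 8 with DESeq2, 3 with limma voom, 8 without the 6 kidneys, 3 with the second strand column and 1 to 8 without single kidneys (*Cxcl2* alone without *Cxcl12* control 1 or 2). For the averaged KO effect it was 4, and 7 without the 6 kidneys, 2 with the first strand column and 0 to 6 without single kidneys. The difference of KO effects gave 0 to 0. The cause was not tested. In the *Cxcl12* cohort the covariate marks only KO 1 and 2, which are also the kidneys left out there, so these settings are not independent. Over all genes the calls were 0 against 353 with DESeq2 and 214 without the filter in the *Cxcl12* cohort, 246 against 1131 with DESeq2, 954 with the covariate and 8 without the 6 kidneys in the *Myc* cohort, 316 against 801 with DESeq2 between the control groups, 11 against 324 for the difference of KO effects and 625 against 1529 for the averaged effect. Without single kidneys they ranged from 0 to 15, 21 to 877, 49 to 611, 1 to 75 and 38 to 1570, respectively.

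The median log2 fold change of the tested genes in the *Myc* cohort was 0.29, and 0.20 without the filter, 0.21 in the fit over all 18 kidneys, 0.17 without the 6 kidneys, 0.25 with the first strand column and 0.14 to 0.35 without single kidneys; in the *Cxcl12* cohort it was 0.24, and 0.14 with voom, 0.13 without the filter, 0.40 with the covariate, 0.39 without the 6 kidneys and 0.12 to 0.39 without single kidneys. Equal replicate numbers did not mark kidneys that deviated together (correlation of deviations -0.035 to 0.14 between *Cxcl12* groups and -0.16 to 0.38 between *Myc* groups). When the replicate block was fitted, 0 genes were called in either cohort and for the difference of KO effects, and 3 for the averaged effect, where *Cx3cr1* had an adjusted p of 0.054 (0.051 with the first strand column, which also lost *Cxcl3* at 0.063); for the control groups, and for a test of the pairs, no block was fitted. Genes near 0 changed sign. In the *Cxcl12* cohort *Ccl2* had 0.16 with the first strand column, 0.34 with the covariate and 0.34 without the 6 kidneys, *Ccl7* had 0.047 and 0.039 with the latter settings, *Cxcl10* had -0.065 with the first strand column, -0.050 with voom and -0.32 with the block, *Cxcl14* had -0.0040 with the first strand column, and *Cxcl16* had 0.056 with the block, 0.11 with the covariate and 0.11 without the 6 kidneys. In the *Myc* cohort *Ccl9* had 0.010 with the second strand column and 0.015 with voom, and *Cxcl16* had -0.046 without the 6 kidneys. Without single kidneys the ranges that cross 0 were, in the *Cxcl12* cohort, -0.035 to 0.63 for *Ackr2*, -0.33 to 0.21 for *Ccl2*, -0.033 to 0.44 for *Ccl9*, -0.26 to 0.23 for *Cxcl10*, -0.045 to 0.14 for *Cxcl14* and -0.19 to 0.13 for *Cxcl16*, and in the *Myc* cohort -0.16 to 0.11 for *Ccl9*, -0.62 to 0.18 for *Ccr7* and -0.0026 to 0.22 for *Cxcl1*. Of the other values for named genes, 317 for loss of *Cxcl12* and 399 for loss of *Myc* kept their direction and side of the threshold. The correlation of *Ccr2* with *Ly6c2* moved from 0.035 to -0.29, 0.45 and -0.31 without the 2 farthest, the 6 low-unmapped and 2 neutrophil-rich kidneys.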
